A study of Mus musculus with 6 samples.

Results

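The colony-stimulating factors and their receptors were followed in mammary tumors of mice given DMHCA, a steroidal agonist of the LXR nuclear receptors, and in control mice. The family was taken by gene symbol as 10 of the 55385 genes listed, with 5 ligands (Csf1, Il34, Csf2, Csf3 and Kitl) and 5 receptor genes (Csf1r, Csf2ra, Csf2rb, Csf3r and Kit). Colony-stimulating factors are secreted or membrane-bound proteins that keep blood cell precursors alive and drive them to divide and mature. CSF-1 and IL-34 share the receptor tyrosine kinase CSF1R on macrophages, GM-CSF acts through an alpha chain and a beta chain that IL-3 and IL-5 also use, G-CSF acts on neutrophils and their precursors, and stem cell factor acts on KIT. In the mammary gland, CSF-1 is known for the recruitment of macrophages to ducts and tumors, G-CSF for the release of neutrophils from bone marrow, and KIT for its expression in luminal progenitor cells as well as in mast cells.

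RNA was sequenced from 6 libraries of female NeuT/ATTAC mice, 3 controls and 3 given DMHCA. The mice carry 2 transgenes. In MMTV-NeuT the MMTV promoter drives an activated oncogene, rat ErbB2[V664E], in mammary epithelium. In FAT-ATTAC the FABP4 promoter of fat cells drives caspase-8 joined to the binding domain FKBPv. The dimerizer AP20187, at 0.4 mg/kg by intraperitoneal injection 3 times per week from 6 weeks of age, activates this caspase and removes part of the mammary fat, which fibrotic tissue replaces. The DMHCA group received AP20187 and, from 8 weeks of age, a diet with 0.05% DMHCA, a dose of about 100 mg/kg. The treatment label of the controls names AP20187 and vehicle and was read here as AP20187 without DMHCA. Age at collection was not given in the sources used here. Because the RNA came from tumors, the libraries report on tumors in fibrotic fat pads and on whole tissue, not on sorted blood cells.

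The deposited counts summed to between 46358735 and 63420673 per control library and between 52330999 and 55539484 per DMHCA library. DMHCA libraries 1 and 3 were near-identical, with a biological coefficient of variation of 0.0327 between them against 0.376 to 0.579 for the other pairs within a group. They were summed into 1 sample, called DMHCA 1+3, which leaves 3 control samples and 2 DMHCA samples. The labelled tissue, fibrosis of the mammary gland, was set against marker genes. Of the epithelial genes Krt18 had a mean of 1309 TPM, a share of all transcripts corrected for gene length, and Col3a1, a fibroblast collagen gene, had a mean of 272 TPM.

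Several libraries stood apart before any comparison. Control 1 held 8182 TPM of 5 salivary gland genes against 13.2 to 118 TPM in the other 4 samples. Control 3 held 312 TPM of 7 B cell genes and 234 TPM of 7 T cell genes, where Control 1 had 37 and 24.3 TPM and no other sample had more than 2.25 and 9.84 TPM. Control 3 was also highest in milk protein genes at 44196 TPM, a list led by the casein Csn3. Genes of fat cells were lower in both DMHCA samples, with a sum of 1.59 TPM in DMHCA 1+3 and 3.38 TPM in DMHCA 2 against 38.1, 10.4 and 145 TPM in Controls 1, 2 and 3. The part of these tissues in the results for the colony-stimulating factors was not tested, and in whole tissue fewer cells of a type and less RNA per cell cannot be told apart.

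The family spanned a wide range of levels. Kit was the most abundant member with 129 ± 42 TPM (SD, n = 5), above 94.7% of the genes tested. Csf2ra followed with 29 ± 7.37 TPM, Csf1r with 27 ± 5.87 TPM, Kitl with 19.3 ± 9.09 TPM and Csf1 with 18.1 ± 3.95 TPM. Il34 had 14.4 ± 7.36 TPM, Csf2rb 8.55 ± 7.3 TPM, Csf3 4.28 ± 7 TPM and Csf3r 2.4 ± 0.542 TPM. Csf2 was last with 0.083 ± 0.0691 TPM. Only the first and last steps of this order were clear of the spread: the lowest sample for Kit, at 86.1 TPM, was above the highest for Csf2ra, at 36.1 TPM, and the lowest for Csf3r, at 1.55 TPM, was above the highest for Csf2, at 0.17 TPM. Every other pair of neighbors from Csf2ra to Csf3r overlapped in range.

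**Figure D1:**
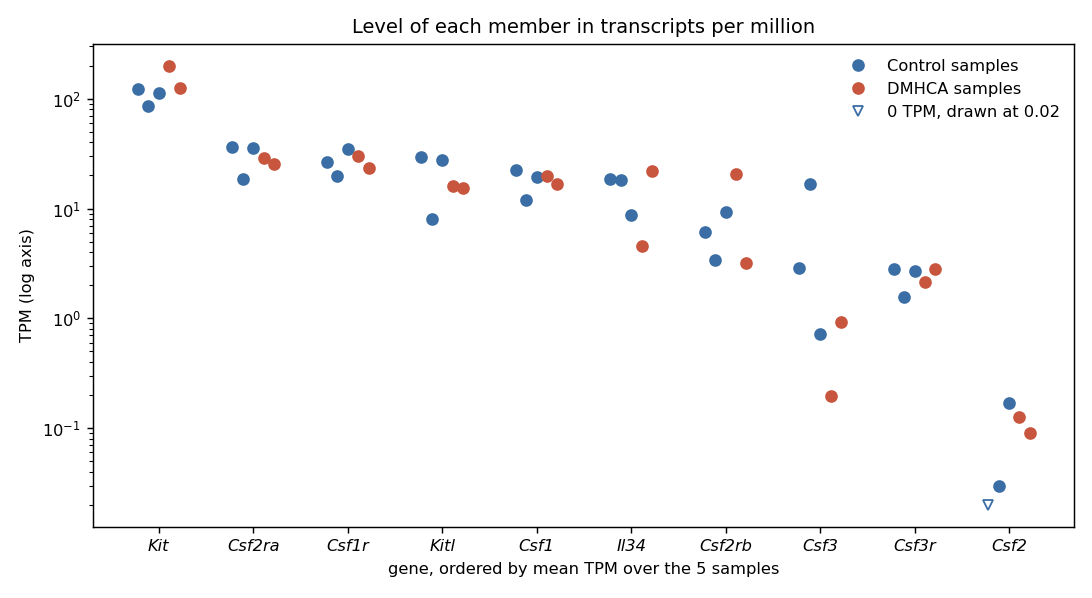
Level of each member in TPM (log axis) in 3 control samples (blue) and 2 DMHCA samples (red), ordered by the mean over 5 samples. Kit lies above all other members in every sample, from 86.1 to 199 TPM, and Csf2 lies at or below 0.17 TPM.

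The comparison of DMHCA with control asked whether any member differed beyond the spread between samples. None of the 9 members tested passed an adjusted p of 0.05 in edgeR (0 of 9), and none of the 19535 genes tested did (0%). No gene had an adjusted p below 0.648. With DESeq2, 242 genes and 0 members passed on the same samples, and limma on TPM called 0 genes. By direction of the estimate, 7 members were lower and 2 were higher with DMHCA, with a median log2 fold change of -0.22 against -0.05 over all genes tested. The median over all genes depended on the fit: it was -0.20 in DESeq2 on the same samples, and 0.16 and 0.11 in limma on TPM. In limma on TPM the estimates of Csf1 and Csf3r were also higher with DMHCA. At an unadjusted p under 0.05, 1 of the 9 members was lower (Csf3), where 4.22% of all genes tested were, and 0 were higher, where 3.36% were. The groups did not overlap for 1 member, Csf2ra, which was lower with DMHCA. Among all genes tested, 12.7% were lower and 13.1% higher without overlap, so the counts for the family were near the background. Csf2 was too low to be tested.

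**Figure D2:**
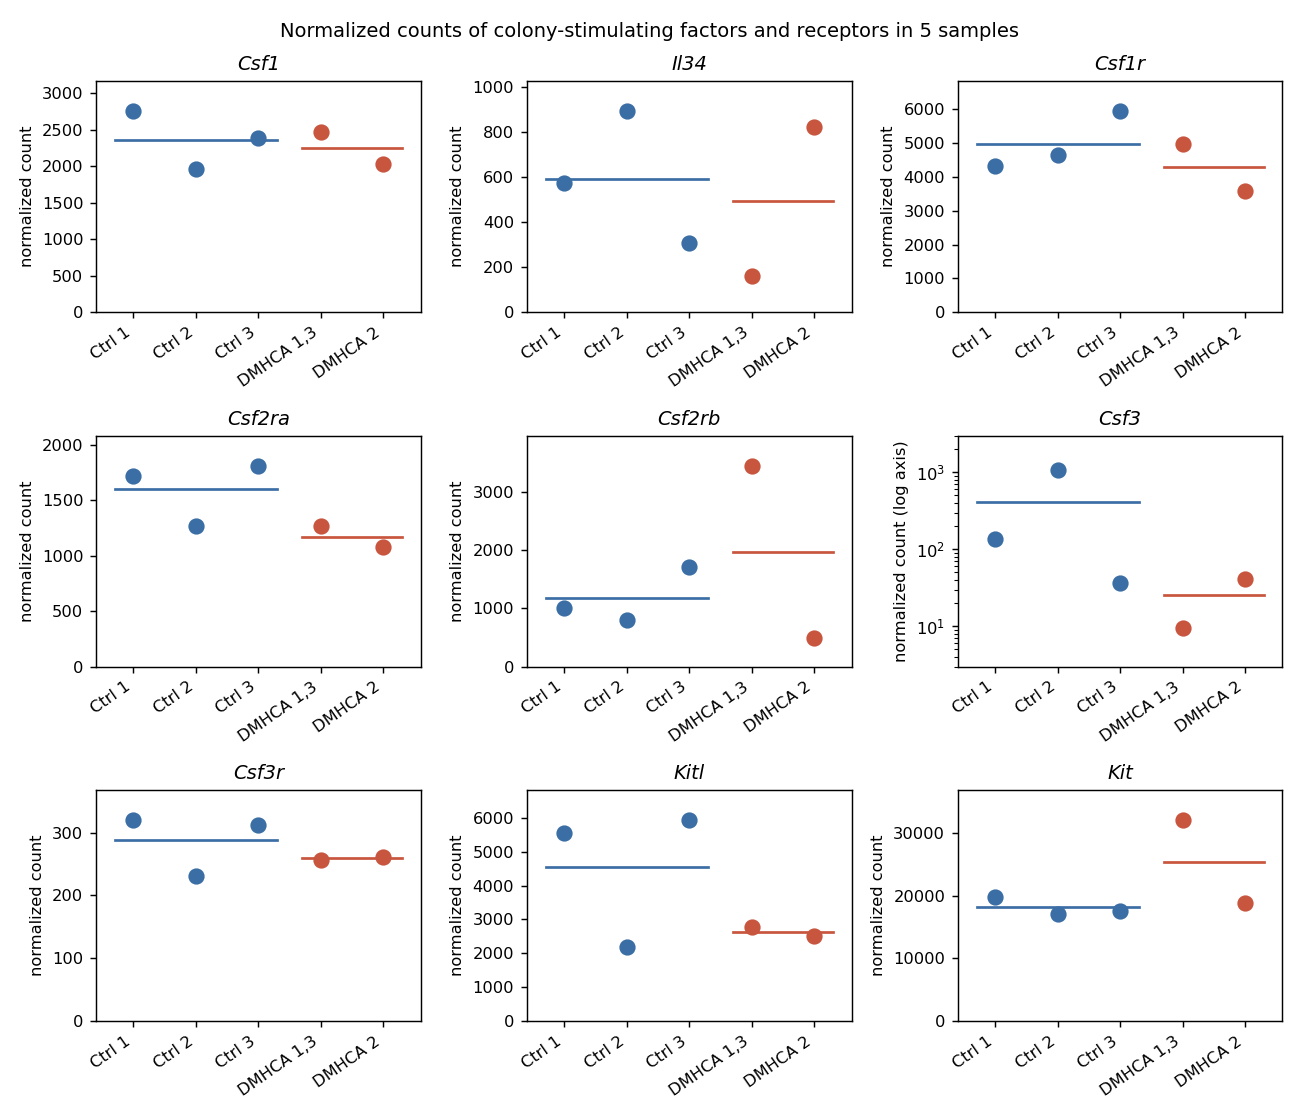
Normalized counts of the 9 tested members in 3 control samples (blue, Ctrl) and 2 DMHCA samples (red); horizontal lines are group means, and the axis for Csf3 is logarithmic. Csf3 ranges from 9.56 to 1072, Csf2rb is highest in DMHCA 1+3 at 3445, and the groups overlap for every member but Csf2ra.

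Csf1 (ENSMUSG00000014599; GRCm38 chr3:107741048-107760469, minus strand) encodes the main growth factor of macrophages. Its normalized count, scaled to a common library size, was 2754, 1955 and 2383 in Controls 1, 2 and 3, and 2474 in DMHCA 1+3 and 2030 in DMHCA 2. The 5 samples lay within 1.41-fold of each other, and both DMHCA samples lay inside the control range. DMHCA over control gave a log2 fold change of -0.07 with a standard error of 0.26, a 95% interval of -0.70 to 0.56 and an adjusted p of 0.949. Its sign was not stable, and the estimate was 0.07 in limma on TPM, 0.06 without Control 1 and 0.11 without DMHCA 2. The interval is not adjusted for the number of genes, here and for the members that follow, and leaves room for a change of moderate size in either direction.

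Il34 (ENSMUSG00000031750; chr8:110741829-110805924, minus strand), the other ligand of CSF1R, varied widely in both groups. Its normalized count was 575, 893 and 307 in Controls 1, 2 and 3, 162 in DMHCA 1+3 and 822 in DMHCA 2. The DMHCA samples differed 5.09-fold from each other, which is almost the whole spread of 5.53-fold over the 5 samples, and they enclosed 2 of the 3 controls. Between groups the log2 fold change was -0.27 ± 0.76 (SE) with an adjusted p of 0.929. Without DMHCA 2 it was -1.83, and without Control 2 it was 0.18, so single libraries set its size and sign. The ratio of Il34 to Csf1 in TPM was 0.827, 1.52 and 0.448 in the controls, 0.232 in DMHCA 1+3 and 1.29 in DMHCA 2. Il34 was therefore the more abundant ligand of CSF1R in Control 2 and DMHCA 2, and Csf1 in the other 3 samples.

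Csf1r (ENSMUSG00000024621; chr18:61100598-61132149, plus strand) encodes the receptor that both ligands bind and marks macrophages. Normalized counts were 4333, 4639 and 5947 in Controls 1, 2 and 3, 4988 in DMHCA 1+3 and 3577 in DMHCA 2. Control 3 was highest and DMHCA 2 lowest, and DMHCA 1+3 lay among the controls. Its log2 fold change of -0.22 ± 0.28 (SE) had an adjusted p of 0.829, with a 95% interval of -0.90 to 0.47. It was 0.05 without DMHCA 2 and -0.00 in limma on both TPM scales. Exons of Hmgxb3, a gene on the opposite strand, cover 15.1% of the exonic bases of Csf1r, and whether the counting used strand was not stated. Hmgxb3 itself had 1392, 1466 and 937 normalized counts in the controls, 1182 in DMHCA 1+3 and 1698 in DMHCA 2, so its low and high samples were opposite to those of Csf1r.

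Macrophage markers were set beside Csf1r. All 12 macrophage and monocyte genes were tested, 9 with a lower and 3 with a higher estimate in DMHCA, and their median log2 fold change was -0.19. Their summed level was 1365, 1122 and 2279 TPM in Controls 1, 2 and 3, 1256 TPM in DMHCA 1+3 and 1013 TPM in DMHCA 2. Lyz2, a lysozyme gene, was the most abundant and had the lowest estimate of the list, a log2 fold change of -1.10 with an adjusted p of 0.648. Cd163, a scavenger receptor gene, had the highest at 0.30. Without Lyz2 the sums were 807, 770 and 943 TPM in the controls, 823 TPM in DMHCA 1+3 and 659 TPM in DMHCA 2, with Control 3 highest and DMHCA 2 lowest. Csf1r in TPM was also highest in Control 3, at 35, but lowest in Control 2, at 19.8. Csf1r was equal to 1.54% to 2.38% of the summed level of the list in the 5 samples.

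Csf2 (ENSMUSG00000018916; chr11:54247271-54249667, minus strand), which encodes GM-CSF, had almost no reads. The rounded counts were 0, 1 and 4 in Controls 1, 2 and 3, and 3, 2 and 3 in DMHCA libraries 1, 2 and 3. These counts are at the level where a few reads decide the value, and no fold change was computed. Of the other ligands that use the same beta chain, Il3 had 0 reads in every library, and Il5 had at most 8.7 normalized counts, in Control 3. At this depth, then, transcripts of the ligands of the beta chain were at or near the limit of detection in both groups.

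Csf2ra (ENSMUSG00000059326; chr19:61223957-61228429, minus strand) encodes the chain that binds GM-CSF specifically. Its normalized count was 1717, 1269 and 1813 in Controls 1, 2 and 3, 1264 in DMHCA 1+3 and 1080 in DMHCA 2. Both DMHCA samples lay below all controls, but Control 2 and DMHCA 1+3 were nearly equal. For Csf2ra the log2 fold change was -0.45 ± 0.29 (SE), with a 95% interval of -1.14 to 0.24 and an adjusted p of 0.686. The estimate was -0.10 in limma on both TPM scales. In TPM the groups overlapped, with 36.1, 18.7 and 36 in the controls, 28.8 in DMHCA 1+3 and 25.5 in DMHCA 2, because Control 2 was the lowest sample on that scale.

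Csf2rb (ENSMUSG00000071713; chr15:78325752-78353847, plus strand) encodes the shared beta chain, which carries the signal for GM-CSF, IL-3 and IL-5. It had 1009, 794 and 1707 normalized counts in Controls 1, 2 and 3, 3445 in DMHCA 1+3 and 486 in DMHCA 2. DMHCA therefore held both the highest and the lowest sample, 7.09-fold apart. Its fold change, 0.75 ± 0.76 (SE) on the log2 scale, had an adjusted p of 0.776, and it was 1.61 without DMHCA 2. In DMHCA 1+3 the ratio of beta chain to alpha chain TPM was 0.724, against 0.124 to 0.258 in the other 4 samples, so the chains of the receptor did not keep a constant ratio.

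Mice have a close copy of this gene, Csf2rb2 (ENSMUSG00000071714; chr15:78282507-78305721, minus strand), which encodes a beta chain for IL-3 alone. Of the windows of 100 bases in Csf2rb transcripts, 4.63% occur without mismatch in Csf2rb2, and the expected counts of both genes were not whole in any of the 6 libraries, so part of their reads was divided by estimate. Csf2rb2 had 529, 394 and 1100 normalized counts in Controls 1, 2 and 3, 464 in DMHCA 1+3 and 311 in DMHCA 2. It was not high in DMHCA 1+3, and the ratio of Csf2rb to Csf2rb2 in TPM was 8.07 there against 1.54 to 2.04 in the other samples.

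Other receptor chains that pair with the beta chain were read too. Il3ra, the alpha chain for IL-3, had 259, 198 and 525 normalized counts in Controls 1, 2 and 3, 232 in DMHCA 1+3 and 225 in DMHCA 2. Il5ra, the alpha chain for IL-5, had at most 13 and was not tested. High Csf2rb in DMHCA 1+3 was thus not matched by Csf2ra, Il3ra or Il5ra in that sample.

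Csf3 (ENSMUSG00000038067; chr11:98701263-98703629, plus strand), which encodes G-CSF, varied most of the family. The rounded counts were 142, 1121 and 34 in Controls 1, 2 and 3, and 13, 41 and 6 in DMHCA libraries 1, 2 and 3. As normalized counts these were 137, 1072 and 37 in the controls, 9.56 in DMHCA 1+3 and 40.9 in DMHCA 2, a range of 112-fold. Control 2 was far above the other samples, and the groups overlapped because Control 3 was below DMHCA 2. The log2 fold change was -4.06 with a standard error of 1.61, a 95% interval of -7.93 to -0.18 and an adjusted p of 0.648. Without Control 2 it was -1.79, so that library supplied much of the estimate. DESeq2 gave Csf3 an adjusted p of 0.062 on the same 5 samples, and 0.00171 when the near-identical libraries were entered as separate ones, while over all alternatives the adjusted p ranged up to 0.959. That call on 6 libraries was lower with DMHCA, as were 2.98% of the 19972 genes with an adjusted p in that fit.

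Csf3r (ENSMUSG00000028859; chr4:126024550-126044440, plus strand) encodes the G-CSF receptor of neutrophils. In contrast to the wide range of its ligand, its normalized counts were 320, 231 and 313 in Controls 1, 2 and 3, 257 in DMHCA 1+3 and 261 in DMHCA 2. The samples lay within 1.39-fold, the narrowest range of the tested members, and the DMHCA samples were inside the control range. For the receptor the log2 fold change was -0.15 ± 0.42 (SE) with an adjusted p of 0.928, and its sign turned to 0.12 and 0.08 in limma on TPM with the smaller and larger pseudocount. Control 2, highest in Csf3, was lowest in Csf3r, and the ratio of Csf3 to Csf3r in TPM ran from 0.0905 in DMHCA 1+3 to 10.8 in Control 2.

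Neutrophil markers differed widely in level. Of 11 genes, 8 were tested, 7 with a lower and 1 with a higher estimate, and their median log2 fold change was -1.56. Ly6g, a surface marker of neutrophils, had at most 3.26 normalized counts and was at 0 in Control 1 and in both DMHCA samples, while Mpo and Elane, made mainly by granulocyte precursors, had at most 6.52 and 1.99. Other markers were detected in every sample, such as the chemokine receptor gene Cxcr2 at 46.3 to 311 normalized counts and Retnlg at 5.03 to 47.8. These 5 were named after their values were seen. Retnlg had 11.6, 47.8 and 47.8 in Controls 1, 2 and 3, 5.03 in DMHCA 1+3 and 7.98 in DMHCA 2, without overlap. Of the 8 tested genes, 2 were lower without overlap (12.7% of all genes tested) and 0 higher (13.1%). At an unadjusted p under 0.05 in edgeR, 3 were lower (4.22% of all genes) and 0 higher (3.36%). The summed level was 461, 66.4 and 3208 TPM in Controls 1, 2 and 3, 91 TPM in DMHCA 1+3 and 248 TPM in DMHCA 2. Ltf, which milk-producing epithelium also makes, was the most abundant gene and had the lowest log2 fold change, -4.36. Without Ltf the sums were 53.3, 32.2 and 57.3 TPM in the controls, 10.3 TPM in DMHCA 1+3 and 213 TPM in DMHCA 2. The high value in DMHCA 2 came from S100a8, with 2201 normalized counts against 61.9 to 371 in the other samples, and it had the highest estimate of the list at 1.91. Its partner in the calprotectin complex, S100a9, which was named after its values were seen, had 303, 251 and 312 in Controls 1, 2 and 3, 51.3 in DMHCA 1+3 and 155 in DMHCA 2, without overlap, a log2 fold change of -1.49 and an adjusted p of 0.648. In normalized counts neither Csf3 nor Csf3r was highest in DMHCA 2, while in TPM Csf3r was, at 2.81 against 1.55 to 2.79 in the other samples.

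Kitl (ENSMUSG00000019966; chr10:100015630-100100416, plus strand) encodes stem cell factor, the ligand of KIT. Its normalized count was 5541, 2187 and 5933 in Controls 1, 2 and 3, 2783 in DMHCA 1+3 and 2498 in DMHCA 2. Controls 1 and 3 were high, while Control 2 lay below both DMHCA samples. The log2 fold change was -0.79 ± 0.45 (SE), with a 95% interval of -1.87 to 0.30 and an adjusted p of 0.669. The estimate was negative under every alternative run, from -1.11 to -0.27, and was -0.62 without Control 1 and -0.56 without Control 3. Controls 1 and 3 were also the samples with the most salivary gland, B cell and fat cell RNA, and the part of those tissues in the level of Kitl was not tested.

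Kit (ENSMUSG00000005672; chr5:75574916-75656722, plus strand) encodes the receptor tyrosine kinase for stem cell factor. Its normalized counts were 19791, 16995 and 17583 in Controls 1, 2 and 3, 32015 in DMHCA 1+3 and 18822 in DMHCA 2. DMHCA 1+3 stood above all other samples, while DMHCA 2 lay among the controls. The log2 fold change was 0.49 ± 0.33 (SE) with an adjusted p of 0.701, positive under every alternative run, from 0.45 to 0.86. The ratio of ligand to receptor in TPM was 0.241, 0.0937 and 0.246 in the controls, 0.0801 in DMHCA 1+3 and 0.122 in DMHCA 2, so the receptor transcript exceeded its ligand in all 5 samples.

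The level of Kit was set beside mast cells and epithelium. The summed TPM of 8 mast cell genes was 30.2, 19.6 and 47.1 in Controls 1, 2 and 3, 33.9 in DMHCA 1+3 and 8.81 in DMHCA 2. Kit alone was 239% to 1421% of that sum, with the highest share in DMHCA 2, where mast cell genes were lowest. Mcpt4, a mast cell protease gene, was the most abundant of the list, and the fold changes ran from -1.19 for Cma1 to 0.30 for Tpsab1. None of the 8 was at 0 in all libraries, and 6 had a lower and 2 a higher estimate with DMHCA. The 6 epithelial genes summed to 4029, 3469 and 3140 TPM in the controls, 4816 TPM in DMHCA 1+3 and 4698 TPM in DMHCA 2, and the level of Kit was equal to 2.48% to 4.13% of that sum. Within the list the log2 fold changes ran from -4.01 for Krt19 to 0.72 for Erbb2, with Krt18 the most abundant.

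Luminal progenitor genes were read beside Kit, and all 4 were tested, 3 with a lower and 1 with a higher estimate and a median log2 fold change of -1.31. Elf5, a transcription factor gene of these cells and the most abundant of them, had 11755, 9701 and 18828 normalized counts in Controls 1, 2 and 3, 18826 in DMHCA 1+3 and 10844 in DMHCA 2, with a log2 fold change of 0.14. Aldh1a3, an aldehyde dehydrogenase gene, had 4799, 2212 and 2222 in the controls, 367 in DMHCA 1+3 and 861 in DMHCA 2. DMHCA 1+3 thus combined the highest Kit with the lowest Aldh1a3. The log2 fold change of Aldh1a3 was -2.33 with an adjusted p of 0.648. Cd14 had 16676, 11089 and 24162 in the controls, 4920 in DMHCA 1+3 and 4361 in DMHCA 2. Lif had 658, 461 and 233 in the controls, 209 in DMHCA 1+3 and 339 in DMHCA 2. Both were named after their values were seen. Of the 4 genes, 2 were lower without overlap (12.7% of all genes tested) and 0 higher (13.1%). At an unadjusted p under 0.05 in edgeR, 2 were lower (4.22% of all genes) and 0 higher (3.36%).

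**Figure D3:**
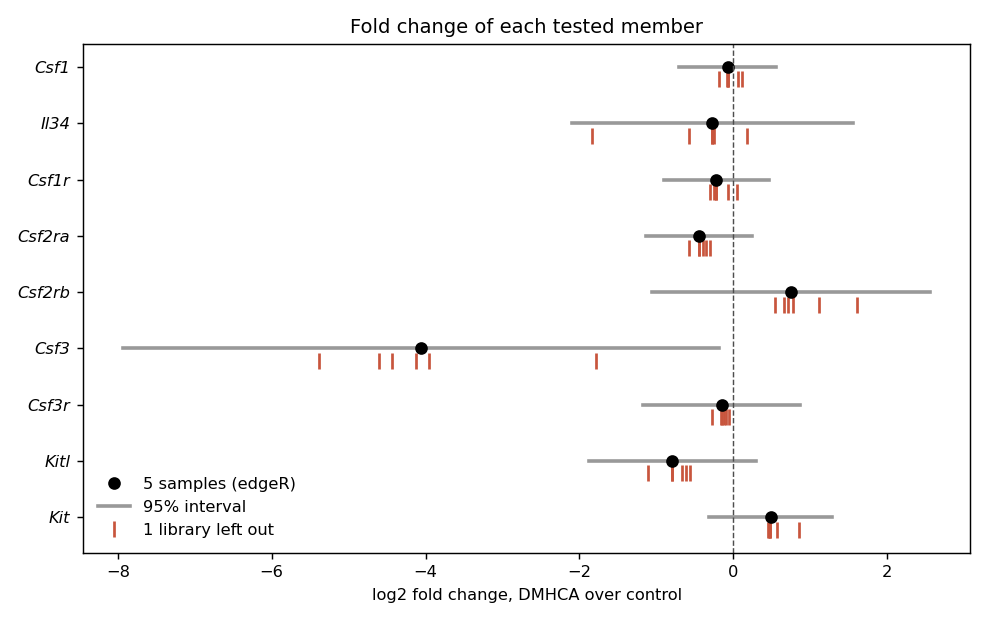
Log2 fold change of DMHCA over control for each tested member, with the edgeR estimate on 5 samples (black point), its 95% interval (grey bar) and the estimates with 1 library left out (red ticks). Csf3 lies at -4.06 with values from -5.38 to -1.79 when a library is left out, and the other 8 members lie between -0.79 and 0.75.

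Patterns over the 5 samples were compared by the root mean square difference between centered log2 profiles, where 0 is an equal pattern. The gene closest to Csf3 was Tnnt2, a troponin gene, at 0.24, with 1109, 9635 and 357 normalized counts in the controls, 137 in DMHCA 1+3 and 432 in DMHCA 2, followed by S100a3 at 0.26 and Gm32255 at 0.41. These shared the peak of Csf3 in Control 2. Closest to Il34 were Hbegf, which encodes a ligand of the EGF receptor, at 0.11, Shisa4 at 0.11 and the membrane metalloproteinase gene Mmp14 at 0.18, which were low in Control 3 and DMHCA 1+3. Csf2rb was closest to Ankrd53 at 0.10, 0610043K17Rik at 0.11 and the transcription factor gene Casz1 at 0.12, all highest in DMHCA 1+3. Among the genes close to Kit were Pnpla7 at 0.06 and Jmjd7 at 0.07, which were also highest there. Members with a narrow range had near matches among unrelated genes, such as Clp1 at 0.03, Rab3il1 at 0.05 and Ubp1 at 0.05 for Csf1r, and Mdm4 at 0.03, Zfp119a at 0.03 and Cbarp at 0.05 for Csf3r. For Csf1 the closest were Gm47140 at 0.05, Gm21926 at 0.06 and the leukotriene receptor gene Cysltr1 at 0.06. Csf2ra was closest to Gm36839 at 0.03, Abat at 0.06 and Lair1, an inhibitory receptor gene of leukocytes, at 0.07. Kitl was closest to Gm26510 at 0.08, G930009F23Rik at 0.09 and Ranbp3l at 0.12, each with high values in Controls 1 and 3.

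Relatives of the members outside the beta chain family were also read. Flt3, the receptor tyrosine kinase of dendritic cell precursors, had 52.9, 13.4 and 357 normalized counts in Controls 1, 2 and 3, 35.7 in DMHCA 1+3 and 14 in DMHCA 2, and its log2 fold change of -2.48 was the lowest of the relatives, with an adjusted p of 0.667. Its ligand gene Flt3l, the most abundant relative, was likewise highest in Control 3 at 825, the library with most B and T cell RNA. Pdgfra and Pdgfrb, receptor genes of the same kinase class that mark stromal cells, had log2 fold changes of -0.56 and 0.34. Of the 9 relatives, 6 were tested, 5 with a lower and 1 with a higher estimate, and none passed the threshold in edgeR.

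Signaling genes behind the receptors were read as a group. All 26 genes for kinases, STAT proteins, adaptors and feedback inhibitors behind these receptors were tested, 18 with a lower and 8 with a higher estimate, with a median log2 fold change of -0.21 against -0.05 over all genes. For 6 of the 26 both DMHCA samples were below all controls (12.7% of all genes tested) and for 0 above (13.1%), and 2 were lower at an unadjusted p under 0.05 (4.22% of all genes). Socs2, a feedback inhibitor gene induced by STAT5, was the most abundant, with 20334, 31874 and 20173 normalized counts in Controls 1, 2 and 3, 30347 in DMHCA 1+3 and 27333 in DMHCA 2. The estimates ran from -1.67 for Pik3r5, a regulatory subunit of PI3-kinase in leukocytes, to 0.65 for the adaptor gene Gab2. Gab2, like Kit and Csf2rb, was highest in DMHCA 1+3, at 1525 against 508 to 883 in the other samples. Socs3, the feedback inhibitor of the G-CSF receptor, was named after its values were seen. It had 1304, 1511 and 1361 in the controls, 719 in DMHCA 1+3 and 636 in DMHCA 2, without overlap, a log2 fold change of -1.04 and an adjusted p of 0.648.

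Transcription factor genes of myeloid cells were read as a further group. Of 10, 9 were tested, 6 with a lower and 3 with a higher estimate, and the median log2 fold change was -0.42. Cebpb, which encodes a factor of emergency granulopoiesis, was the most abundant, with a mean of 490 TPM, and had the highest log2 fold change, 0.89. It had 19290, 21010 and 17498 normalized counts in the controls, 29315 in DMHCA 1+3 and 42041 in DMHCA 2. Which cells of the whole tissue held the RNA of Cebpb was not tested. Its relative Cebpd, named after its values were seen, went the other way with 5077, 4191 and 4997 in the controls, 1944 in DMHCA 1+3 and 2373 in DMHCA 2. The groups overlapped for neither gene, and both had an adjusted p of 0.648. They were the 1 higher and the 1 lower gene without overlap among the 9 tested, near the 13.1% and 12.7% of all genes tested. Gfi1, a repressor gene needed for neutrophil maturation, had the lowest estimate at -1.89.

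Cytokines and acute phase genes commonly induced with Csf2 and Csf3 had 12 of 13 genes tested, 10 with a lower and 2 with a higher estimate and a median log2 fold change of -0.60. For 4 of these both DMHCA samples were below all controls and for 0 above, where 12.7% and 13.1% of all genes tested were. Lcn2, which encodes an iron-scavenging protein of neutrophils and epithelium, was the most abundant gene with a mean of 10741 TPM. The list ran from -2.73 for the chemokine gene Ccl20, at no more than 13 normalized counts, to 0.29 for Nfkbiz. Il1b, an inducer of Csf3 that was named after its values were seen, had 695, 1511 and 538 in Controls 1, 2 and 3, 356 in DMHCA 1+3 and 384 in DMHCA 2. Control 2 was the highest sample for both Il1b and Csf3. Of the same list, Il6, Cxcl5 and Lcn2 were also highest in Control 2 in normalized counts, while the other tested genes were highest elsewhere. For Lcn2 the counts were 428174 in Control 2 and 419244 in Control 1, and in TPM Control 1 was highest, at 14993 against 11117 in Control 2. Tnf was low in Control 2, at 39.2, and in DMHCA 2, at 39.9, against 85 in DMHCA 1+3 and 111 and 290 in Controls 1 and 3. Il1a was highest in DMHCA 1+3, at 140 against 80.4 in Control 2. These genes too were named after their values were seen, and a link of the list to Csf3 was not tested.

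The structure of the genes bears on how firmly the counts can be read. Windows of 100 bases were compared between transcripts in the direction of transcription only. Those of Csf1, Il34, Csf2, Csf3, Kitl, Csf1r, Csf2ra and Kit occurred in no transcript of another gene, and 0.376% of those of Csf3r did. Bases shared with a gene on the opposite strand, as between Csf1r and Hmgxb3, could not be found by this search. Besides Hmgxb3 at Csf1r, antisense genes covered 12% of the exonic bases of Csf2 (Gm12223) and 1.12% and 3.83% of those of Il34 (Gm15894 and Gm15895). On the same strand, the microRNA gene Mir7676-2 covered 0.852% of the exonic bases of Csf2rb. Expected counts of Csf1r and Csf3r were not whole in any of the 6 libraries, like those of Csf2rb, and those of Il34 were not whole in 1 library. Exons of Csf1, Csf3, Kitl, Csf2ra, Csf3r and Kit overlapped no other annotated exon.

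Promoter sequences of 300 bases, from 250 before to 50 after the start of transcription, were given for 6 members by RefSeq (GRCm38.p6): Csf1, Csf2, Csf2ra, Csf3r, Kitl and Kit. Those of Csf3, Il34, Csf1r and Csf2rb were not analysed here. Both strands were searched. The letters GAGGAA, the core of the site bound by the myeloid factor PU.1, occurred in 3 of the 6 (Csf2ra, Csf3r and Kit) and in 28.3% of the 32851 promoters given. AGGTCA, of which the response element of the LXR receptors holds 2 copies with 4 bases between them, occurred in 0 of the 6 and in 16.3% of all promoters, and the full repeat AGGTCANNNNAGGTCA in 0.0152%. TATAAA occurred in Kitl alone among the 6 and in 13.6% of all. TTGCNNAA, a core bound by C/EBP factors, occurred in Csf2 alone and in 10.8% of all, and GAGATTCC, part of a cytokine promoter element, in none of the 6 and in 0.904% of all. The promoters of the receptor genes for GM-CSF (chr19:61228369-61228668, minus strand) and G-CSF (chr4:126024409-126024708, plus strand) are shown because these receptors mark myeloid cells and both promoters hold those letters, with GAGGAA or its reverse complement in capitals. Csf2ra holds 2 adjoining copies and Csf3r 1, and a match is only a description of the letters.
Csf2ra: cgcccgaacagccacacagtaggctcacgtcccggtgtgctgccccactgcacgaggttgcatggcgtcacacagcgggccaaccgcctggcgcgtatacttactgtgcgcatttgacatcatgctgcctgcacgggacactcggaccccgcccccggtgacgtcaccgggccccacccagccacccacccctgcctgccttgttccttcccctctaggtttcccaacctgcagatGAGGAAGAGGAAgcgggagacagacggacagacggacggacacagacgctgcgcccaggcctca
Csf3r: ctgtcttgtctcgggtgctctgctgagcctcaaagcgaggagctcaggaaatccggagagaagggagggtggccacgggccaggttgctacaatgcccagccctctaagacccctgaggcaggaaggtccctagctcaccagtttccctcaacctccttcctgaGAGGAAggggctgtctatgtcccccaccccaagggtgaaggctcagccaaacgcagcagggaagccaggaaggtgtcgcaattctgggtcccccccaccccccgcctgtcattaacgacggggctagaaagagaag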

How the data were processed

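RNA of 3 control and 3 DMHCA libraries was analysed. The authors trimmed reads with cutadapt 2.9 and used RSEM 1.3.1 with Bowtie2 2.4.1 on mm10 (GRCm38), per the labels and the study's methods. The deposited expected counts are the authors' estimates of reads per gene, not normalized, and 19.6% to 23.5% per library are not whole. TPM values were deposited alongside, corrected by the authors for gene length and brought to a constant total. Use of strand was not given in the sources used here.

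Expected counts were rounded. The depth per library was 46358735 to 63420673 counts. Over genes averaging 100 counts or more, a pair of libraries was counted as 1 sample where under 10% of genes differed by a chi-square test, or where its biological coefficient of variation was under 0.1 and over 5 times below the rest. DMHCA libraries 1 and 3 met only the latter, with 18.2% of genes differing. edgeR 4.0.16 in R 4.3.3 compared 3 control with 2 DMHCA samples (TMM, filterByExpr with a minimum count of 10 and a total of 15, quasi-likelihood F-test, Benjamini-Hochberg adjustment over 19535 genes), and was tested on simulated data. Standard errors are the log2 fold change over the square root of F, and 95% intervals use the degrees of freedom of that test. Normalized counts were divided by TMM-adjusted depth and multiplied by its mean per library. Levels of different genes were compared in TPM, with the mean of DMHCA libraries 1 and 3 as 1 value. The study describes 3 mice per group, which the near-identity of DMHCA libraries 1 and 3 puts in doubt for that pair: 1 tumor or 1 library sequenced again is possible and was not tested. Fits on 6 libraries count that pair as separate, so their p-values do not measure the spread between tumors.

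Alternatives were DESeq2 1.42.0 and limma 3.58.1 on log2(TPM + 0.1) and log2(TPM + 1), DESeq2 size factors, other filters, robust dispersions, the 6 libraries with and without a replicate block, other thresholds and each library left out. Genes named are the members and their relatives; from each list the most abundant gene, those with the lowest and highest fold change, and those at 0 in all libraries; and the 3 genes closest in pattern to each tested member, of which 1 is not reported here. Further genes fall outside this rule and are marked in the text as named after their values were seen. The members and lists were chosen with earlier results of these data known. Coordinates are from GENCODE mouse release 21 (GRCm38). Python 3.11.15, pandas 2.3.3, numpy 2.4.6 and matplotlib 3.10.9 were used. FPKM values were not used here.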

Additional observations from a re-analysis of the deposited data

How the results depend on the processing

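Of 144 fold changes of tested members under alternatives, 135 kept their direction and their side of the threshold, 8 changed sign and 1 passed the threshold. Changes of sign were Csf1 at 0.07 in limma on both TPM scales, at 0.06 without Control 1 and 0.11 without DMHCA 2 (range with a library left out -0.18 to 0.11); Csf3r at 0.12 and 0.08 in limma on log2(TPM + 0.1) and log2(TPM + 1); Csf1r at 0.05 without DMHCA 2 (range -0.30 to 0.05); and Il34 at 0.18 without Control 2 (range -1.83 to 0.18). In limma on TPM the median of all genes was 0.16 and 0.11, against -0.05 in edgeR on counts, with test and scale changed together. The call was Csf3 in DESeq2 on 6 libraries (1 member), at -4.37. Against 0 genes past the threshold in edgeR on 5 samples, 1480 genes and 1 member had an unadjusted p under 0.05, 242 genes were called by DESeq2 on the same samples, 887 by DESeq2 on 6 libraries, 16 by edgeR without a filter, and 0 by limma and with any library left out; leaving out a library gave 0 members too. On 6 libraries edgeR called 0 genes with a block for replicate number and 0 without one. Correlations of same-numbered deviations were -0.035, 0.309 and 0.318, and Control 1 was closest to DMHCA 2. Because DMHCA 1 and 3 were near-identical, these values cannot show whether the numbers pair the samples. Leaving out DMHCA 2 leaves 1 DMHCA sample, which is then assumed to vary like the controls. With 2 DMHCA samples, moderate changes in members of uneven level, Csf3, Il34 and Csf2rb above all, cannot be resolved, and fewer than 5 reads per library limit Csf2. The causes of these differences were not tested.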

Other observations

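Genes of other cell types described the tissue in which the family was measured. All 7 dendritic cell genes had lower estimates in DMHCA, with a median log2 fold change of -1.49 and sums of 20.2, 11 and 56.1 TPM in Controls 1, 2 and 3, 12.1 TPM in DMHCA 1+3 and 9.61 TPM in DMHCA 2. Itgax was the most abundant, and the list ran from -4.36 for Ccr7 to -0.38 for Zbtb46. Fibroblast genes summed to 784, 331 and 1300 TPM in the controls, 650 TPM in DMHCA 1+3 and 675 TPM in DMHCA 2, with estimates from -1.80 for Dcn to 0.28 for Col1a1. Endothelial genes, led by Pecam1, summed to 32.5 to 72.1 TPM in the controls and to 55.9 and 56.4 TPM in the DMHCA samples, and ran from -0.23 for Tek to 0.80 for Cdh5. None of these genes passed the threshold in edgeR.

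Skeletal muscle genes, led by Tnnt3, were lowest in DMHCA 2 at 182 TPM, against 458 to 782 TPM in the other 4 samples, and ran from -0.77 for Ckm to -0.04 for Myh1. Fat cell genes, led by Adipoq, were lower in both DMHCA samples than in all controls for 5 of 5, as were 12.7% of all genes tested, with estimates from -5.86 for Pck1 to -4.35 for Plin1. Milk protein genes ran from -7.03 for Csn2 to 1.37 for Lalba, salivary gland genes, led by Bpifa2, from -8.45 for Crisp1 to -5.50 for Dcpp1, B cell genes, led by Cd79a, from -8.01 for Cr2 to -4.85 for Cd79b, and T cell genes, led by Cd3g, from -4.73 for Cd3d to -1.87 for Cd4. The groups overlapped for all 7 B cell genes, because Control 2 was as low as the DMHCA samples.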
